A study of Mus musculus with 24 samples.

Results

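The genes described here are 10 of the 24421 gene lines of the count table, picked by name: the cyclin-dependent kinase (CDK) inhibitors Cdkn1a, Cdkn1b, Cdkn1c, Cdkn2c and Cdkn2d, the G1 cyclins Ccnd1, Ccnd2 and Ccnd3, and their partner kinases Cdk4 and Cdk6. All 10 passed the filter on low counts. Their transcripts were measured by bulk RNA-seq in blood stem and progenitor cells sorted from bone marrow enriched for CD117 (Kit), taken from 4 aged (107 weeks) and 4 young (12 weeks) male C57BL/6 mice with no other treatment. Every sorted cell lacked lineage markers and carried Sca1 and Kit. Those with CD150 and without CD48 were long-term stem cells (LT-HSC), those with neither were short-term stem cells (ST-HSC), and those with CD48 and without CD150 were multipotent progenitors (MPP). Aged and young LT-HSC, aged and young ST-HSC, and aged and young MPP had 4 libraries each, 24 in all. Levels are given as CPM (counts after scaling every library to the same total), as mean ± SD (n = 4 libraries), and an age effect is the log2 fold change of aged over young cells. In sorted bulk samples, fewer cells with a transcript and less transcript per cell cannot be told apart.

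A cell leaves quiescence and passes through G1 when D cyclins, made in answer to growth factors, bind CDK4 or CDK6 and the complexes phosphorylate the RB proteins, which releases E2F transcription factors. INK4 proteins (p18 from Cdkn2c, p19 from Cdkn2d, and p16 and p15 from Cdkn2a and Cdkn2b) bind CDK4 and CDK6 directly. Cip/Kip proteins (p21 from Cdkn1a, p27 from Cdkn1b and p57 from Cdkn1c) bind cyclin and CDK complexes, mainly those of CDK2. In mouse marrow p57 is known for holding stem cells in quiescence, CDK6 for setting how quickly they leave it, and p21 as a target of p53.

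Library totals ran from 7307151 to 12946550 counts. The sort markers followed the gates: Slamf1, which encodes CD150, averaged 72.1 ± 11.7 CPM in aged LT-HSC and 26.2 ± 3.9 CPM in young LT-HSC and under 1 CPM in the other 4 groups, and Cd48 averaged 90.2 ± 6.4 CPM in aged and 66.4 ± 2.9 CPM in young MPP. Of the 24 libraries, 3 were picked after seeing the data, each on its own measure, and are called below those that stood apart. Young LT-HSC library 1 held 682 CPM of Mpo, a myeloid granule gene, against 0.533 to 3.86 CPM in the other young LT-HSC libraries. Aged ST-HSC library 2 had the highest sum of 7 granulocyte markers of its group, at 1685 CPM, and aged ST-HSC library 3 the lowest mean correlation with its group, 0.947. Libraries outside these 3 also stood out in a marker sum. Aged ST-HSC library 4 held 364 CPM of B and plasma cell markers, against 19.1 to 30.3 CPM in the rest of its group. Aged MPP library 4 held 9327 CPM of them, against 1858 to 3491 CPM. Young MPP library 1 held 563 CPM of endothelial and stromal markers, against 179 to 195 CPM. Young ST-HSC library 4 held 334 CPM of them, against 149 to 154 CPM, and 228 CPM of granulocyte markers, against 1.09 to 7.48 CPM. Mast cell and basophil markers stood at 503 CPM in young MPP library 3, against 19.4 to 47.0 CPM. In aged MPP library 1 they stood at 529 CPM, against 73.4 to 158 CPM. The 7 B and plasma cell markers summed to 1858 to 9327 CPM in aged MPP and 39.9 to 348 CPM in young MPP, with none of the 7 at 0 in either group. The sum of 8 T and NK cell markers was higher in every aged library than in every young one of its population. In LT-HSC it was 72.1 to 121 CPM when aged and 25.5 to 38.7 CPM when young. In ST-HSC it was 153 to 223 CPM when aged and 57.9 to 79.2 CPM when young. In MPP it was 197 to 368 CPM when aged and 137 to 190.4 CPM when young. Of these 8 genes, 3 or 4 were at 0 in each LT-HSC and ST-HSC group. In young MPP 2 were at 0, Cd3e and Ncr1, and in aged MPP 1, Cd3e. Other sums without overlap of the ages were those of 7 monocyte and macrophage markers (282 to 547 CPM in aged and 199.8 to 281 CPM in young ST-HSC) and of 6 mast cell and basophil markers (8.14 to 22.2 CPM in aged and 1.99 to 6.75 CPM in young ST-HSC). The 6 megakaryocyte markers summed to 116 to 143 CPM in aged and 66.6 to 84.3 CPM in young ST-HSC, and to 86.6 to 128 CPM in aged and 61.0 to 66.6 CPM in young MPP. The 7 endothelial and stromal markers summed to 153 to 174 CPM in aged LT-HSC and 103 to 148 CPM in young LT-HSC. The 10 LT-HSC sort and identity markers summed to 5668 to 5823 CPM in aged LT-HSC and 3821 to 4393 CPM in young LT-HSC. In MPP they summed to 1539 to 1778 CPM when aged and 1944 to 2291 CPM when young. This list also holds Cd48, which LT-HSC lack by the gates, and Kit and Ly6a (Sca1), which every sorted cell carried. The sum is therefore no measure of LT-HSC identity alone. The part of other cell types' RNA in the age effects below was not tested. The 15 markers of cycling cells summed to 265 to 786 CPM in aged LT-HSC and 953 to 1323 CPM in young LT-HSC.

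Sequences upstream of the start are shown for the genes whose age effects open the results below: the inhibitors Cdkn1a and Cdkn2c and the kinases Cdk6 and Cdk4. Each run holds the 250 bases before the annotated start, 5′ to 3′ on the gene's strand, taken from RefSeq on build GRCm38.p6. Capitals mark exact matches to GGGCGG (letters of the SP1 box), TATAAA (letters of the TATA box) and TTTNNCGC (loose letters of an E2F site, N being any base). Each was searched on both strands and at any position in the window.
Cdkn1a, second annotated start, chr17:29093519-29093768, plus strand: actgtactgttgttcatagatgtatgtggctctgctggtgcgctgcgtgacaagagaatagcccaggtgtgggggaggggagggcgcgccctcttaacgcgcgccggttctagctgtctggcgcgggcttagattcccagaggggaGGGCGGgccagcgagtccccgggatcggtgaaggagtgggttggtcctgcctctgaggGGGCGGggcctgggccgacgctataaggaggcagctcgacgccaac
Cdkn2c, first annotated start, chr4:109666757-109667006, minus strand: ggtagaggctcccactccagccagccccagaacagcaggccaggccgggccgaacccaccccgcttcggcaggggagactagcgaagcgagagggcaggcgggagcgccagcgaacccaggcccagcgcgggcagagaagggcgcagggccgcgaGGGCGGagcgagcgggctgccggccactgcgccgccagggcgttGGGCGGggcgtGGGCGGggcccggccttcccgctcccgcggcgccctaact
Cdk4, chr10:127063285-127063534, plus strand: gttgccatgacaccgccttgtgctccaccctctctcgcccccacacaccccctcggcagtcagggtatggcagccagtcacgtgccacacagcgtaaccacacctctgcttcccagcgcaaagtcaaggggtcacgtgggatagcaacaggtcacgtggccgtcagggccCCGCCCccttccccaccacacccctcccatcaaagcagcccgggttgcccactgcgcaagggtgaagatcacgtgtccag
Cdk6, chr5:3343643-3343892, plus strand: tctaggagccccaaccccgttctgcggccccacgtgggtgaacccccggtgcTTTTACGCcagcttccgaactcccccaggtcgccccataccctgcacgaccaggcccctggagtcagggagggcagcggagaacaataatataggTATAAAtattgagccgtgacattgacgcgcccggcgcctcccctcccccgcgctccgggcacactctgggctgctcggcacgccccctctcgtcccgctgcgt
The Cdkn1a window holds 2 SP1 boxes, the Cdkn2c window 3 and the Cdk4 window 1, while the Cdk6 window holds none. The Cdk6 window has TATAAA at bases -103 to -98 from the start and TTTTACGC, a match to TTTNNCGC, at -198 to -191. Whether either works as a TATA box or an E2F site was not tested, and near matches in the other windows were not searched. The other annotated starts of Cdkn1a and Cdkn2c, not shown, have 0 SP1 boxes in their windows. Of all 32536 promoter windows searched in the same way, 33.0% hold GGGCGG, 12.3% TATAAA and 4.31% TTTNNCGC. CCAAT, AP-1 (TGANTCA) and STAT (TTCNNNGAA) letters, held by 33.8%, 6.73% and 7.04% of windows, are in none of these 4 windows. Windows were given for 7 of the 10 genes, Cdkn1a, Cdkn1b, Cdkn2c, Cdkn2d, Ccnd3, Cdk4 and Cdk6. These matches describe letters and were not tested against the levels.

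With age, Cdkn1a rose past the threshold given below in all 3 populations, and no other of the 10 genes passed it in all 3. Cdkn2c, Cdkn2d, Ccnd1 and Cdk6 also had positive age effects in all 3, though not all past the threshold. Past the threshold in LT-HSC, Cdk6 also rose while Ccnd2 and Cdk4 fell. In ST-HSC Cdkn2c and Cdk6 rose past it while Ccnd2 fell, and in MPP Ccnd1 rose. So 4 of 10 genes passed the threshold (adjusted p under 0.05, quasi-likelihood test of edgeR, Benjamini-Hochberg adjustment over all 14205 genes tested) in LT-HSC, where 18.9% of all genes did. In ST-HSC 4 of 10 passed, against 5.79% of all genes, and in MPP 2 of 10, against 9.79%. By direction, 2 rose and 2 fell in LT-HSC (9.98% and 8.87% of all genes), 3 rose and 1 fell in ST-HSC (3.58% and 2.21%), and 2 rose and 0 fell in MPP (5.53% and 4.27%). The median age effect over the 10 genes was 0.12 in LT-HSC, 0.19 in ST-HSC and 0.15 in MPP, and over all genes tested it was 0.00, 0.01 and -0.00 in the same order.

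**Figure D1:**
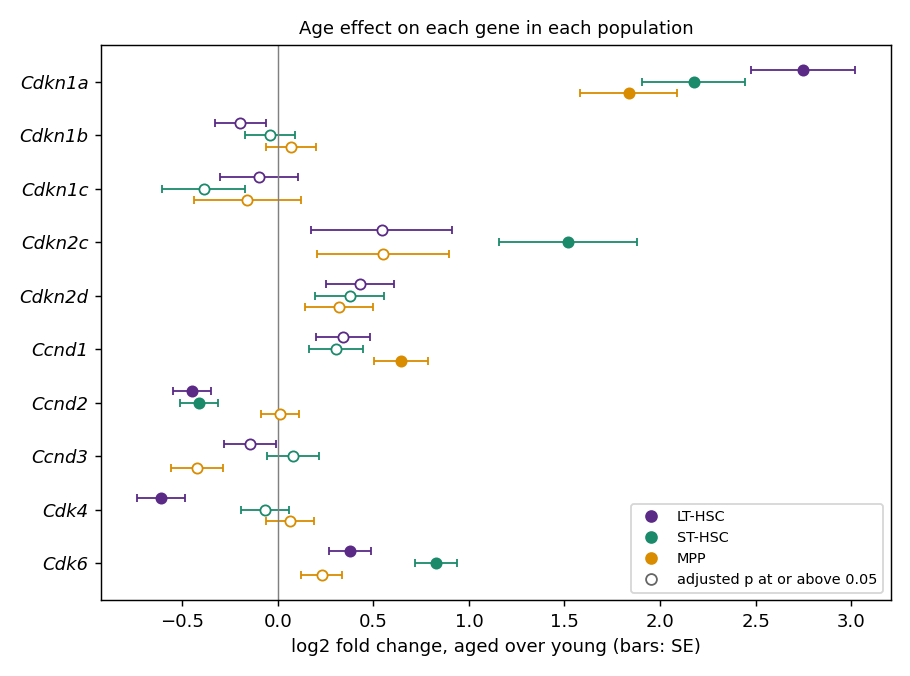
Age effect on each of the 10 genes, as the log2 fold change of aged over young cells (x axis, bars are SE) in LT-HSC, ST-HSC and MPP; filled points passed an adjusted p of 0.05 and open points did not. Cdkn1a lies farthest to the right in each population, at 2.75, 2.18 and 1.84, and the Cdk4 point of LT-HSC lies lowest, at -0.61.

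Among the Cip/Kip inhibitors, Cdkn1a (chromosome 17, 29090976 to 29100727, plus strand, build GRCm38, GENCODE annotation, as for the coordinates of genes below) encodes p21, which stops cyclin and CDK complexes after p53 activation and in quiescence. In LT-HSC it stood at 57.6, 35.1, 44.4 and 32.6 CPM in aged libraries 1 to 4, against 4.51, 8.17, 3.75 and 8.60 CPM in the young ones. ST-HSC had 25.1, 33.8, 27.4 and 28.1 CPM when aged and 5.13, 4.26, 8.62 and 7.10 CPM when young. MPP had 49.2, 58.5, 59.2 and 47.1 CPM when aged and 13.4, 8.71, 16.7 and 21.0 CPM when young. In each population every aged library was above every young one. Groups did not overlap for 22.1% of all genes tested in LT-HSC, 10.9% in ST-HSC and 16.5% in MPP. The level was 6.72-fold higher in aged than in young LT-HSC (log2 fold change 2.75 ± 0.27 SE, adjusted p = 7.75e-08), 4.52-fold in ST-HSC (2.18 ± 0.27, 1.97e-05) and 3.57-fold in MPP (1.84 ± 0.25, 3.50e-05). Without the 3 libraries that stood apart the log2 changes were 2.63, 2.07 and 1.83. The age effects of the populations did not differ past the threshold: LT-HSC minus MPP was 0.91 (95% interval 0.15 to 1.67, adjusted p = 0.112) and LT-HSC minus ST-HSC 0.57 (-0.21 to 1.36, adjusted p = 0.453). Without aged MPP library 4, which held the highest sum of B and plasma cell markers, the log2 change in MPP was 1.90. Every aged MPP library held more of these markers than every young one, and their part in the Cdkn1a levels was not tested.

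**Figure D2:**
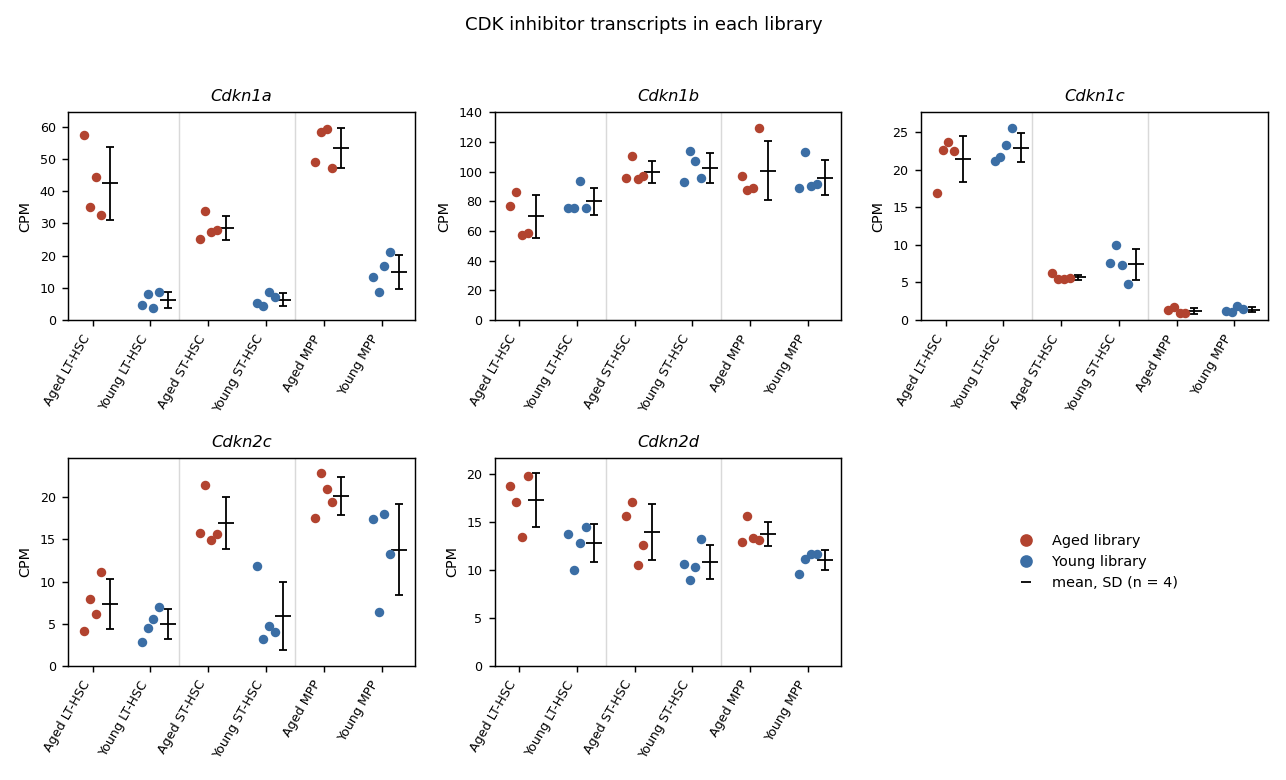
CPM of the 5 CDK inhibitor genes (y axis, from 0) in each library of the 6 groups, with the mean and SD of 4 libraries beside the points. Aged libraries lie above young ones for Cdkn1a in each population, and Cdkn1c steps down through LT-HSC, ST-HSC and MPP at both ages.

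Cdkn1b (chromosome 6, 134920401 to 134925513, plus strand) encodes p27, an inhibitor controlled largely through its breakdown after SKP2 tagging. Its level was 57.1 to 86.2 CPM in aged LT-HSC and 75.3 to 93.8 CPM in young LT-HSC, 95.2 to 111 CPM in aged and 93.1 to 114 CPM in young ST-HSC, and 87.3 to 130 CPM in aged and 88.7 to 113 CPM in young MPP. Aged and young libraries overlapped in each population. Age effects were -0.20 in LT-HSC (95% interval -0.48 to 0.08, adjusted p = 0.331), -0.04 in ST-HSC (-0.32 to 0.23, 0.906) and 0.07 in MPP (-0.21 to 0.34, 0.810). Without aged MPP library 4, which held the highest Cdkn1b level of its group, the MPP value was -0.07.

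Cdkn1c (chromosome 7, 143458339 to 143461050, minus strand) encodes p57, an imprinted gene's product that stem cells need to stay quiescent. Its values in LT-HSC were 16.9, 22.7, 23.7 and 22.6 CPM when aged and 21.2, 21.7, 23.4 and 25.6 CPM when young. ST-HSC held 6.20, 5.45, 5.47 and 5.59 CPM when aged and 7.63, 9.94, 7.29 and 4.86 CPM when young. MPP held 1.38, 1.69, 0.937 and 0.883 CPM when aged and 1.15, 1.06, 1.83 and 1.45 CPM when young. The populations were fully apart at both ages, while the ages overlapped in each population. No age effect passed the threshold, at -0.10 in LT-HSC (95% interval -0.53 to 0.33, adjusted p = 0.788), -0.39 in ST-HSC (-0.84 to 0.07, 0.328) and -0.16 in MPP (-0.75 to 0.43, 0.807), the last resting on 8 to 19 counts a library.

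Of the INK4 inhibitors, Cdkn2c (chromosome 4, 109660876 to 109667189, minus strand) encodes p18, whose loss in mice is known to enlarge the stem cell pool. In ST-HSC it stood at 15.7, 21.5, 14.9 and 15.7 CPM in aged libraries and at 11.9, 3.17, 4.74 and 3.98 CPM in young ones. The groups did not overlap, though young library 1 lay close to the aged range. The level was 2.87-fold higher in aged than in young ST-HSC (log2 1.52 ± 0.36 SE, adjusted p = 0.0127). This call was lost without the 3 libraries that stood apart (1.40, adjusted p = 0.0741). LT-HSC had 4.11, 7.93, 6.12 and 11.1 CPM when aged and 2.85, 4.47, 5.53 and 7.00 CPM when young, and MPP had 17.6, 22.8, 21.0 and 19.4 CPM when aged and 17.5, 6.34, 18.0 and 13.3 CPM when young. Those ranges overlapped, with age effects of 0.54 (95% interval -0.23 to 1.32, adjusted p = 0.333) in LT-HSC and 0.55 (-0.17 to 1.27, 0.347) in MPP. The age effect in ST-HSC was not shown to differ from that in LT-HSC (LT-HSC minus ST-HSC -0.98, adjusted p = 0.326, but -1.57 and 0.0481 without young ST-HSC library 1) or in MPP (ST-HSC minus MPP 0.97, adjusted p = 0.615).

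Cdkn2d (chromosome 9, 21288410 to 21291407, minus strand) encodes p19, the INK4 protein whose message is known to peak in S phase in other mouse cells. Its level was 13.4 to 19.8 CPM in aged LT-HSC and 9.96 to 14.5 CPM in young LT-HSC, 10.5 to 17.1 CPM in aged and 8.95 to 13.2 CPM in young ST-HSC, and 12.9 to 15.6 CPM in aged and 9.53 to 11.7 CPM in young MPP. The MPP ranges were apart and the others overlapped. Age effects had 1 sign, at 0.43 in LT-HSC (95% interval 0.06 to 0.81), 0.38 in ST-HSC (-0.00 to 0.76) and 0.32 in MPP (-0.06 to 0.70), and none passed the threshold (adjusted p = 0.0911, 0.246 and 0.287).

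The other INK4 genes, Cdkn2a (p16) and Cdkn2b (p15), are the best known marks of senescent cells, and they were near absent here. Cdkn2a had 8 counts over 3 aged MPP libraries, 6 of them in library 2, and 0 counts in every library of the other 5 groups, whose summed totals of 33169629 to 37954959 counts allow up to 0.0790 to 0.0904 CPM over a group at 3 counts, counting error only. Cdkn2b had 10 counts in aged ST-HSC, 9 in aged MPP, 4 in young LT-HSC, 1 in young MPP and 0 in aged LT-HSC and young ST-HSC. Both were under the filter and were not tested.

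Among the D cyclins, Ccnd2 fell with age in LT-HSC and ST-HSC. It lies on chromosome 6 (127125162 to 127152193, minus strand), shares 368 exonic bases with the antisense gene 9330179D12Rik and encodes cyclin D2, the D cyclin that cytokines induce in many blood cells. LT-HSC held 706, 776, 613 and 575 CPM when aged and 1024, 970, 804 and 847 CPM when young. ST-HSC held 426, 504, 470 and 488 CPM when aged and 584, 716, 657 and 555 CPM when young. Every aged library was below every young one in both populations. In MPP the values were alike, at 533, 544, 499 and 510 CPM when aged and 454, 605, 494 and 513 CPM when young. The age effect was -0.45 ± 0.10 SE in LT-HSC (adjusted p = 0.00206), -0.41 ± 0.10 in ST-HSC (0.0136) and 0.01 ± 0.10 in MPP (0.959; 95% interval -0.20 to 0.22). The ST-HSC call was lost without aged library 1 (-0.36, adjusted p = 0.0533), young library 2 (-0.33, 0.0759) or young library 3 (-0.38, 0.0542).

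The difference of age effects between LT-HSC and MPP passed the threshold for Ccnd2, at -0.46 ± 0.14 SE (adjusted p = 0.0361). Of the 10 genes, 2 had such a difference, Ccnd2 and Cdk4, where 9.93% of all genes did. For Ccnd2 it was lost without the 3 libraries that stood apart (-0.39, adjusted p = 0.0834) and without any 1 of 8 libraries: aged MPP 2 (0.0534), aged LT-HSC 3 (0.0650) and 4 (0.0650), young LT-HSC 1 (0.0699) and 2 (0.0608), and young MPP 1 (0.0645), 3 (0.0555) and 4 (0.0558), with values between -0.46 and -0.40. ST-HSC minus MPP was -0.43 (adjusted p = 0.247), in a comparison where 0.465% of all genes passed. LT-HSC minus ST-HSC was -0.04 (adjusted p = 0.934).

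**Figure D3:**
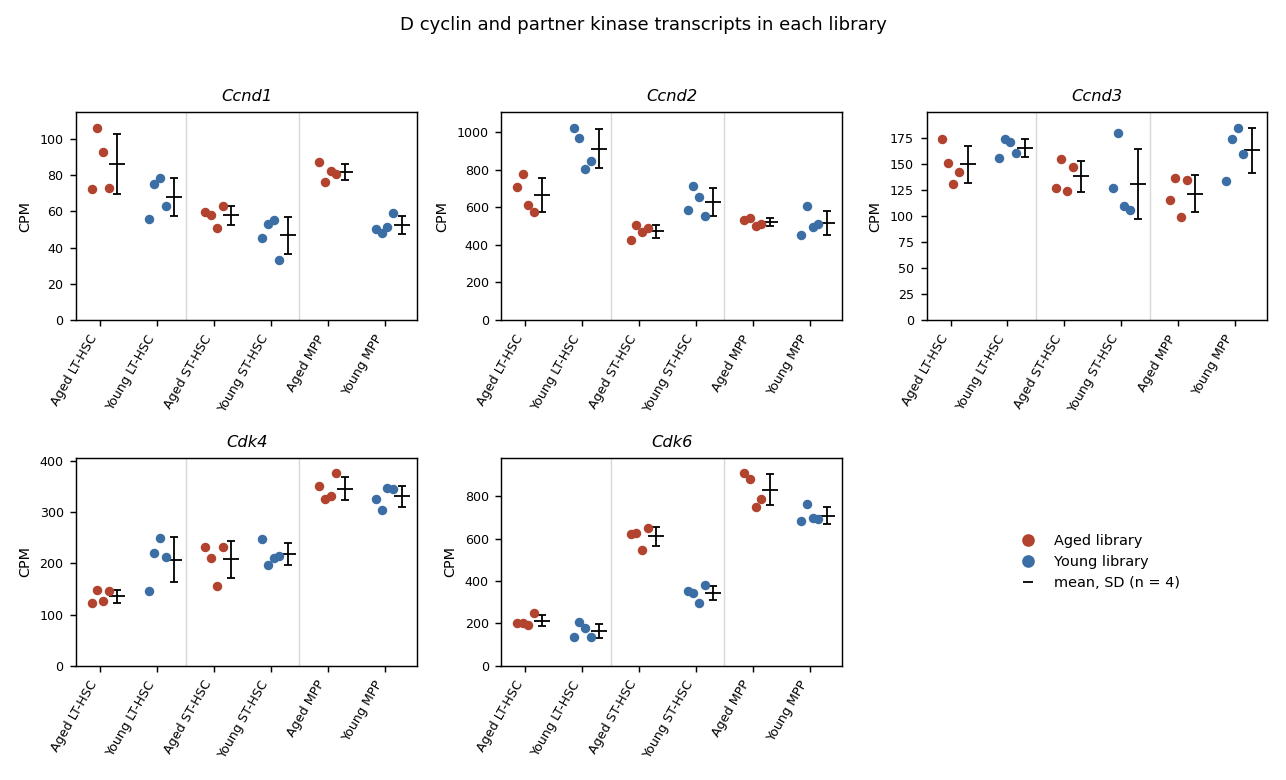
CPM of the 3 D cyclin genes and of Cdk4 and Cdk6 (y axis, from 0) in each library of the 6 groups, with the mean and SD of 4 libraries. Ccnd2 is lower in aged than in young LT-HSC and ST-HSC, Cdk4 is lowest in aged LT-HSC, and Cdk6 climbs through LT-HSC, ST-HSC and MPP.

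Ccnd1 (chromosome 7, 144929931 to 144939925, minus strand) encodes cyclin D1, the D cyclin that answers to growth factors and Wnt signals in many tissues. In MPP it stood at 87.3, 76.4, 82.1 and 80.6 CPM when aged and 50.0, 48.1, 51.6 and 59.3 CPM when young. All aged MPP libraries were above all young ones, and the level was 1.56-fold higher (log2 0.64 ± 0.14 SE, adjusted p = 0.00384). LT-HSC ranged from 72.2 to 106 CPM when aged and 55.5 to 78.6 CPM when young, and ST-HSC from 50.9 to 62.8 CPM when aged and 33.0 to 54.9 CPM when young. These ranges overlapped, with age effects of 0.34 in LT-HSC (95% interval 0.05 to 0.64, adjusted p = 0.0908) and 0.31 in ST-HSC (0.01 to 0.60, 0.232). Ccnd1 shares 1100 exonic bases with LTO1 on the other strand, listed under its older symbol Oraov1, whose age effects were -0.26 in LT-HSC, -0.47 in ST-HSC and -0.41 in MPP, none past the threshold. No difference of age effects passed for Ccnd1, with LT-HSC minus MPP at -0.30 (adjusted p = 0.367).

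Ccnd3 (chromosome 17, 47505051 to 47599691, plus strand) encodes cyclin D3, which lymphoid and erythroid precursors rely on. MPP had 116, 136, 99.5 and 135 CPM when aged and 134, 174, 184 and 160 CPM when young, with 1 young library inside the aged range. The age effect in MPP was -0.42 ± 0.14 SE and just missed the threshold (adjusted p = 0.0508). It passed with DESeq2 (adjusted p = 0.0361), in a fit to MPP alone (0.0434), and without aged library 2 (0.0439) or young library 1 (0.0292). LT-HSC had 131 to 174 CPM when aged and 156 to 174 CPM when young, and ST-HSC 124 to 155 CPM when aged and 106 to 180 CPM when young, with age effects of -0.15 (adjusted p = 0.505) and 0.08 (0.812). Ccnd3 shares 361 exonic bases with Bysl on the other strand, and the library chemistry does not mark strand. Bysl had age effects of -0.14 in LT-HSC, -0.24 in ST-HSC and -0.18 in MPP, and none passed the threshold. Other genes also share exonic bases with a gene on the other strand that has no line in the count table. These are Cdkn1c (625 bases with Gm44732), Cdkn1a (273 with AC167363.2), Cdk6 (368 with Gm17590) and Ccnd2 (372 with Gm43126).

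The 2 partner kinases moved in opposite directions in LT-HSC. Cdk4 (chromosome 10, 127063534 to 127067920, plus strand) stood at 123, 148, 126 and 146 CPM in aged LT-HSC and at 146, 221, 249 and 213 CPM in young LT-HSC. Young library 1, the one with Mpo, was the only young library inside the aged range. The level was 1.53-fold lower in aged LT-HSC (log2 -0.61 ± 0.13 SE, adjusted p = 0.00114), and -0.74 without the 3 libraries that stood apart. ST-HSC had 232, 210, 156 and 232 CPM when aged and 248, 198, 211 and 214 CPM when young, and MPP had 351, 326, 331 and 376 CPM when aged and 325, 305, 347 and 345 CPM when young. Those ranges overlapped, with age effects of -0.07 in ST-HSC (95% interval -0.33 to 0.20, adjusted p = 0.832) and 0.07 in MPP (-0.20 to 0.33, 0.811). The age effect in LT-HSC differed from that in MPP, by -0.67 ± 0.18 SE (adjusted p = 0.0156). Against ST-HSC the difference was -0.54 ± 0.18 (adjusted p = 0.0817), and it passed with DESeq2 (0.0455), without aged ST-HSC library 3 (-0.69, 0.0138), young LT-HSC library 1 (-0.68, 0.00850) or young ST-HSC library 1 (-0.64, 0.0491), and without the 3 libraries (-0.83, 0.000421). Tspan31, which shares 641 exonic bases with Cdk4 on the other strand, had age effects of -0.01 in LT-HSC, -0.13 in ST-HSC and 0.06 in MPP, none past the threshold.

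Cdk6 (chromosome 5, 3341485 to 3531008, plus strand) encodes the kinase known for speeding exit from quiescence in blood stem cells. In ST-HSC it rose, with 623, 626, 547 and 651 CPM when aged and 355, 344, 299 and 380 CPM when young. The groups were far apart there, and the level was 1.78-fold higher in aged ST-HSC (log2 0.83 ± 0.11 SE, adjusted p = 2.52e-05). In ST-HSC Mpo ran from 105 to 2287 CPM in aged and from 54.5 to 77.8 CPM in young ST-HSC. Granulocyte markers summed to 532, 1685, 603 and 8.24 CPM in aged ST-HSC libraries and 5.00, 1.09, 7.48 and 228 CPM in young ones, which overlap. Without the 3 libraries that stood apart, aged libraries 2 and 3 among them, the Cdk6 change in ST-HSC was 0.89 (adjusted p = 0.000224). In LT-HSC the values were 204, 204, 195 and 252 CPM when aged and 138, 207, 177 and 136 CPM when young, with young library 2 inside the aged range. The age effect of 0.38 ± 0.11 in LT-HSC passed (adjusted p = 0.0157) but was lost without aged library 4 (0.28, 0.0958), young library 1 (0.30, 0.0634) or young library 4 (0.28, 0.0970), in a fit to LT-HSC alone (0.37, 0.0651), and without the 3 libraries that stood apart (0.31, 0.0582). MPP had 909, 881, 751 and 788 CPM when aged and 682, 766, 698 and 692 CPM when young, an age effect of 0.23 (95% interval 0.00 to 0.46, adjusted p = 0.190). ST-HSC minus MPP was 0.60 ± 0.15 (adjusted p = 0.0768), and passed with DESeq2 (0.0181) and in a fit to those 4 groups (0.0391). LT-HSC minus ST-HSC was -0.45 ± 0.15 (adjusted p = 0.0963), in a comparison where 4.05% of all genes passed. It passed without aged ST-HSC library 3 (-0.53, 0.0472), aged LT-HSC library 4 (-0.57, 0.0345), young LT-HSC libraries 1 (-0.52, 0.0455) or 4 (-0.56, 0.0416), and without the 3 libraries (-0.58, 0.0422).

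Dividing CPM by transcript length put the genes of each family on 1 scale, as CPM per kilobase of the principal transcript. Ccnd2 was the highest of the 10 genes in LT-HSC, at 105 ± 14 CPM per kb when aged and 144 ± 16 when young. Cdk4 was the highest in ST-HSC, at 101 ± 18 when aged and 106 ± 11 when young, and in MPP, at 168 ± 11 when aged and 161 ± 10 when young. Ccnd3 came next among the D cyclins, at 57.5 to 70.8 CPM per kb in the aged groups and 61.9 to 78.4 in the young ones, and Ccnd1 was the lowest D cyclin in every group. With exon union lengths, which count every annotated exon, Ccnd1 was instead above Ccnd3 in aged LT-HSC (18.3 and 17.0 CPM per kb) and aged MPP (17.3 and 13.9). Among the inhibitors Cdkn1a was the highest in aged LT-HSC, at 20.4 ± 5.4, and in aged MPP, at 25.7 ± 3.0, but Cdkn1b was the highest in the other 4 groups, at 17.6 to 22.5. With exon union lengths Cdkn1a was below Cdkn1b in aged LT-HSC (11.9 and 15.3) and in aged MPP (15.1 and 22.1) too. In young LT-HSC, ST-HSC and MPP Cdkn1a ranked below both Cdkn1b and Cdkn2d, and in young LT-HSC and ST-HSC also below Cdkn1c.

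Cdk6 made up a larger share of the summed Cdk4 and Cdk6 level in aged stem cells. Its share was 22.8, 19.8, 21.6 and 23.5% in aged and 14.4, 14.3, 11.2 and 10.2% in young LT-HSC. In ST-HSC it was 32.4, 34.6, 38.4 and 33.3% when aged and 20.3, 23.7, 20.1 and 24.1% when young. Both pairs of groups were fully apart, by 9.36 percentage points in LT-HSC and 12.6 in ST-HSC (exact permutation test, two-sided, p = 0.0286 each, the smallest that 4 against 4 can give, and 0.0490 after Benjamini-Hochberg adjustment over 12 share tests). Of counts not divided by length, the difference in LT-HSC was 16.7 points. In MPP the share was 30.0 ± 2.4% when aged and 27.7 ± 2.2% when young (exact permutation p = 0.171, adjusted p = 0.187).

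Shares among the D cyclins differed with age as well. Ccnd2 made up 52.8 ± 1.6% of the D cyclin level in aged and 59.8 ± 3.8% in young LT-HSC, and 48.0 ± 1.8% in aged and 57.5 ± 3.5% in young ST-HSC, with no overlap in either population. Ccnd1 made up 9.96 ± 0.91% in aged and 7.18 ± 1.11% in young ST-HSC, and 13.5 ± 1.3% in aged and 8.16 ± 1.16% in young MPP, again with no overlap. Ccnd3 made up 35.5 ± 3.2% in aged and 44.6 ± 2.8% in young MPP. Each of these 5 differences had the same exact permutation p of 0.0286 and adjusted p of 0.0490 (two-sided). Here and for Cdk6 the adjusted p passes only because all these tests were tied at the smallest p. The 3 D cyclin shares of a library add up to the whole, so their tests are not separate evidence. The other 4 were not past the threshold: Ccnd1 in LT-HSC (11.6 ± 2.0% aged, 7.59 ± 1.34% young) and Ccnd2 in MPP (51.0 ± 2.0% aged, 47.2 ± 2.7% young) had adjusted p = 0.0686 in the exact permutation test. So did Ccnd3 in ST-HSC (42.0 ± 1.5% aged, 35.3 ± 4.0% young), and Ccnd3 in LT-HSC had 35.6 ± 3.1% when aged and 32.7 ± 2.5% when young, with an adjusted p of 0.200 in that exact test. With exon union lengths the Ccnd2 share in MPP turned round (-0.84 percentage points aged minus young, against 3.75), the Ccnd1 difference in ST-HSC grew to 4.94 points, against 2.78, and the Ccnd3 difference in MPP was -5.99 points, against -9.14. With 1 library left out, 3 against 4 libraries can give no exact permutation p under 0.0286 either. The share calls of Ccnd2 in both stem cell populations, and of Ccnd1 and Cdk6 in ST-HSC, ended without any 1 aged library of that population, and that of Cdk6 in LT-HSC without aged library 2, 3 or 4, all at an adjusted p between 0.0571 and 0.0762. Ccnd2 and Cdk6 in LT-HSC also ended without the 3 libraries that stood apart (0.0857 each), where the 2 aged ST-HSC libraries left allowed no test at the threshold. Groups without overlap stay apart when libraries are left out. These losses came with fewer libraries and an adjustment shared by all share tests. They do not show that the share differences rest on the libraries left out. Conversely, Ccnd1 in LT-HSC passed without aged library 1 (0.0490) and Ccnd3 in ST-HSC without young library 2 (0.0429).

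**Figure D4:**
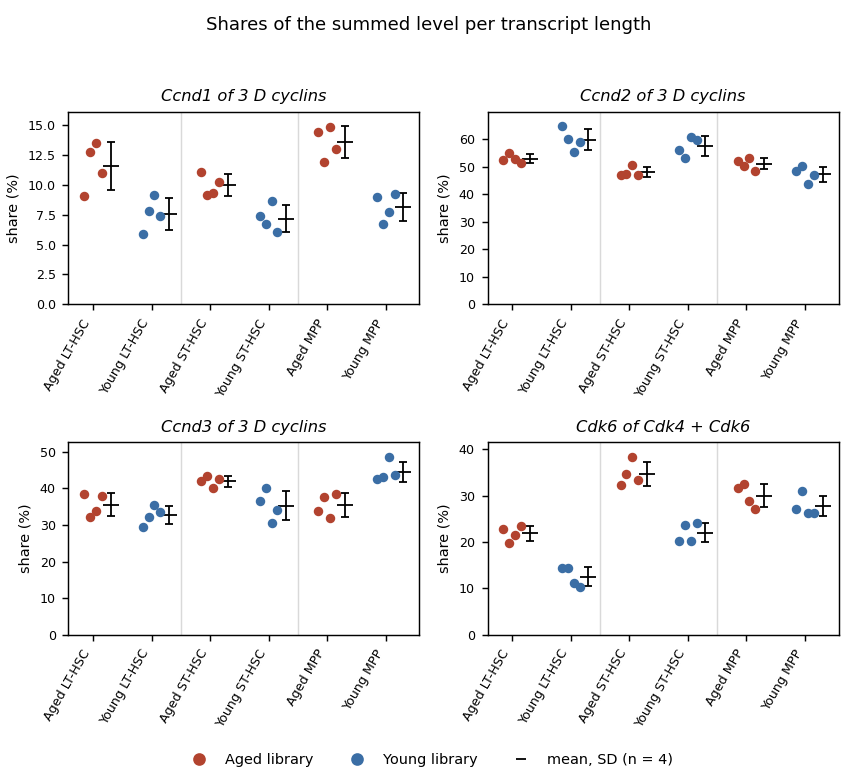
Share in percent (y axis, from 0) of each D cyclin gene in the summed D cyclin level and of Cdk6 in the sum of Cdk4 and Cdk6, per transcript length, in each library of the 6 groups, with mean and SD of 4 libraries. The Cdk6 share of aged LT-HSC, 19.8 to 23.5%, lies above that of young LT-HSC, 10.2 to 14.4%.

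Around the 10 genes, members of the wider G1 to S machinery fell in aged LT-HSC. Of 9 genes for E cyclins, CDK2 and its activators, 0 rose and 5 fell in aged LT-HSC, where 8.87% of all genes fell, with a median change of -0.74 against 0.00 over all genes tested. Cdc25a, the phosphatase that activates CDK2, averaged 29.4 ± 4.2 CPM in aged LT-HSC and 49.4 ± 6.7 CPM in young LT-HSC (log2 -0.74, adjusted p = 5.50e-05), and Cdk2 itself 65.2 ± 6.0 CPM in aged LT-HSC and 89.9 ± 16.0 CPM in young LT-HSC (-0.47, 0.00443). Ccne2 fell by 1.22 and Cks1b by 1.47 on the log2 scale. In this list 0 of 9 genes passed in ST-HSC, where 5.79% of all genes did, and in MPP, against 9.79%, 1 fell, Cdk7, at 44.8 ± 4.9 CPM when aged and 61.7 ± 6.0 CPM when young.

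Of 13 RB family, E2F and DP genes, 2 rose and 8 fell in aged LT-HSC (median -0.57), against 9.98% and 8.87% of all genes. E2f1, an activator of S phase genes, averaged 10.7 ± 4.0 CPM in aged LT-HSC and 37.4 ± 12.3 CPM in young LT-HSC (log2 -1.81, adjusted p = 0.000249). Its partner Tfdp1 fell by 0.65 and E2f3 by 0.63, while Rbl2, whose product p130 is the RB protein of quiescent cells, rose by 0.38 (adjusted p = 0.000496). Rbl2 instead fell by 0.23 in aged MPP (adjusted p = 0.0448), and the difference of its age effects, LT-HSC minus MPP, was 0.62 (adjusted p = 0.000303). In ST-HSC 1 of the 13 passed, E2f6, which was lower in aged cells, and in MPP Rbl2 alone did, against 5.79% and 9.79% of all genes. Of 6 DREAM and MuvB subunits, which repress cell cycle genes in quiescence or activate them later, Lin9 and Mybl2 fell in aged LT-HSC, where 8.87% of all genes fell, and 0 passed in ST-HSC or MPP.

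Of 15 markers of cycling cells, 0 rose and 5 fell in aged LT-HSC (median -1.09), where 8.87% of all genes fell, and 0 passed in ST-HSC or MPP. Mcm5, a helicase subunit that licenses replication, averaged 71.1 ± 16.5 CPM in aged LT-HSC and 294 ± 62 CPM in young LT-HSC (log2 -2.05, adjusted p = 8.40e-07). Their part in the LT-HSC results for Cdk4, Ccnd2 and Cdkn1a was not tested. Of 10 genes for turnover of inhibitors and cyclins, Skp2, which tags p27 for breakdown, fell in aged LT-HSC (18.5 ± 3.9 CPM aged, 28.7 ± 5.2 CPM young) and in aged MPP (25.3 ± 1.4 CPM aged, 37.4 ± 4.1 CPM young), Fbxw7 rose in aged MPP, and 0 passed in ST-HSC. All genes passed at 18.9% in LT-HSC, 9.79% in MPP and 5.79% in ST-HSC.

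Of 18 regulators upstream of the G1 genes, 3 rose and 1 fell in aged LT-HSC, where 18.9% of all genes passed. In ST-HSC 1 rose and 1 fell, against 5.79% of all genes, and in MPP 1 rose and 1 fell, against 9.79%. Stat3, which carries cytokine signals, rose in LT-HSC (535 ± 7 CPM aged, 310 ± 19 CPM young; adjusted p = 6.63e-07) and in ST-HSC (453 ± 46 CPM aged, 358 ± 41 CPM young; 0.0266). Trp53, the gene of p53, fell in aged LT-HSC (101 ± 6 CPM aged, 133 ± 13 CPM young; 0.00147). Mycn, a MYC family activator, fell in ST-HSC by 0.93 and in MPP by 1.35. Klf4, known to activate Cdkn1a in other cell types, rose in MPP, with 22.0 ± 6.5 CPM when aged and 3.89 ± 2.62 CPM when young.

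Other p53 targets passed at about the share of all genes. Of 22 tested of 23 listed, 3 rose and 1 fell in aged LT-HSC (median 0.05), where 18.9% of all genes passed. In ST-HSC 1 rose and 0 fell (median -0.11), against 5.79% of all genes, and in MPP 2 rose and 0 fell (median 0.20), against 9.79%. Plk3, a stress kinase, rose in LT-HSC (37.0 ± 13.1 CPM aged, 15.7 ± 3.3 CPM young) and in ST-HSC (30.8 ± 7.7 CPM aged, 16.4 ± 2.0 CPM young). Sesn1 and Perp also rose in LT-HSC, and Pidd1 fell there. Trp53inp1 and Pmaip1 rose in MPP, where Trp53inp1 averaged 285 CPM with an SD of 161 CPM when aged and 99.0 ± 9.99 CPM when young. The part of B lineage RNA in the MPP values was not tested.

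Between populations, Cdkn1c and Cdk6 ran in opposite directions at both ages. Cdkn1c, per the values above, was highest in LT-HSC: LT-HSC over MPP was 4.11 ± 0.25 SE on the log2 scale in aged mice (adjusted p = 1.63e-13) and 4.06 ± 0.25 in young mice (1.02e-12), with ST-HSC between (LT-HSC over ST-HSC 1.91 aged and 1.63 young, ST-HSC over MPP 2.20 aged and 2.43 young, all past the threshold). Cdk6 was lowest in LT-HSC: LT-HSC over MPP was -1.96 in aged mice (adjusted p = 5.95e-14) and -2.11 in young mice (5.17e-14). Its steps were -1.52 aged and -1.07 young for LT-HSC over ST-HSC, and -0.44 aged and -1.04 young for ST-HSC over MPP, all past the threshold. For both genes all neighbouring populations of 1 age were fully apart.

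**Figure D5:**
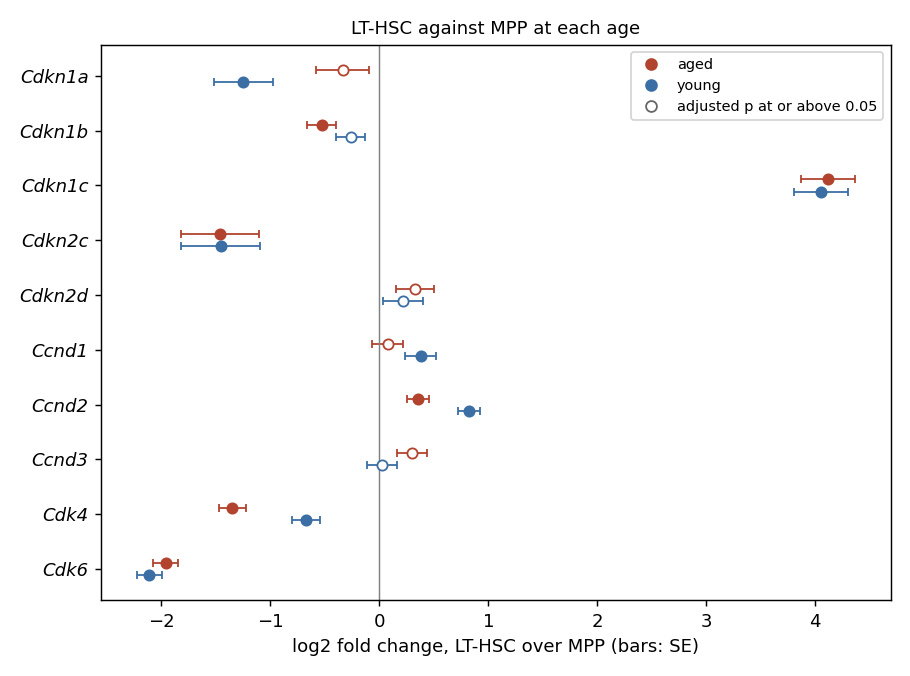
LT-HSC over MPP for each of the 10 genes, as log2 fold change (x axis, bars are SE) in aged and in young mice; filled points passed an adjusted p of 0.05. Cdkn1c lies at 4.11 aged and 4.06 young, Cdk6 at -1.96 aged and -2.11 young, and Cdk4 at -1.35 aged and -0.67 young.

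Counted over the 10 genes, LT-HSC over MPP passed for 6 in aged mice, where 56.8% of all genes did, and for 7 in young mice, where 37.2% did. LT-HSC over ST-HSC passed for 7 in aged mice (32.3% of all genes) and 4 in young mice (12.5%). ST-HSC over MPP passed for 5 in aged mice (29.9%) and 6 in young mice (20.6%). At both ages Cdk4 and Cdkn2c were lower, and Ccnd2 higher, in LT-HSC than in MPP.

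Cdk4 separated LT-HSC from ST-HSC in aged mice (-0.61 ± 0.13 SE, adjusted p = 0.000476) but not in young mice (-0.07 ± 0.13, adjusted p = 0.819), and this pair of values is the same contrast as the difference of age effects given above. ST-HSC was below MPP at both ages (-0.73 aged, adjusted p = 8.25e-05, and -0.60 young, 0.00112). Ccnd2 was higher in LT-HSC than in ST-HSC at both ages (0.50 aged, adjusted p = 0.000318, and 0.54 young, 0.000353) and than in MPP (0.36 aged, 0.00362, and 0.82 young, 2.99e-07). ST-HSC over MPP was 0.28 in young mice (adjusted p = 0.0458), a call lost in 8 alternatives with values down to 0.20 (without young ST-HSC library 2, 0.207), and -0.14 in aged mice (adjusted p = 0.296). The other lost calls came without young ST-HSC libraries 1 (0.0526) and 3 (0.127), young MPP libraries 1 (0.184), 3 (0.129) and 4 (0.0897), without a filter (0.0588), and without the 3 libraries that stood apart (0.0588).

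Ccnd1 was higher in LT-HSC than in ST-HSC at both ages (0.57 aged, adjusted p = 0.00235, and 0.54 young, 0.00998). The young call was lost without young ST-HSC library 4 (0.41, 0.0545). ST-HSC was lower than MPP in aged mice (-0.50, adjusted p = 0.00825, but -0.43 and 0.0850 without the 3 libraries). LT-HSC over MPP in young mice, 0.38 (adjusted p = 0.0363), was lost without young MPP libraries 1 (0.0797), 2 (0.0917) or 3 (0.0704) and without young LT-HSC libraries 2 (0.0963) or 3 (0.124). Ccnd3 passed in no comparison of populations in the fit with 1 mean per group, with the largest value in young LT-HSC over young ST-HSC (0.34, adjusted p = 0.117). Without young ST-HSC library 2 it passed there (0.55, 0.00253) and in young ST-HSC over MPP (-0.52, 0.00412). Aged LT-HSC over MPP passed in a fit to those groups alone (0.29, 0.0472) and without aged MPP library 2 (0.35, 0.0492) or aged LT-HSC library 3 (0.35, 0.0471).

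Cdkn2c was lower in LT-HSC than in MPP by the same amount at both ages (-1.46 ± 0.36 SE aged, adjusted p = 0.00110, and -1.46 ± 0.36 young, 0.00255). In ST-HSC it stood near MPP when aged (-0.25, adjusted p = 0.618) and below MPP when young (-1.22, 0.0172). The young call was lost without young MPP libraries 1 (0.0577) or 3 (0.0588), without young ST-HSC libraries 2 (0.0680), 3 (0.0567) or 4 (0.0595), and in a fit to those groups alone (0.0739). LT-HSC was below ST-HSC in aged mice (-1.21, adjusted p = 0.0105, but -1.10 and 0.0555 without the 3 libraries) and not past the threshold in young mice (-0.23, 0.791).

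Cdkn1a was lower in young LT-HSC and in young ST-HSC than in young MPP (-1.25 each, adjusted p = 0.000705 and 0.00187), and lower in aged ST-HSC than in aged MPP (-0.91, 0.00646). Aged LT-HSC and aged MPP overlapped (-0.34, adjusted p = 0.243). Aged LT-HSC over aged ST-HSC was 0.57 (adjusted p = 0.0790) and passed in a fit to those groups alone (0.56, 0.0294). Ordered by mean, aged MPP, aged LT-HSC and aged ST-HSC came first with neighbours overlapping. Young MPP came next, and young ST-HSC and young LT-HSC overlapped at the bottom. The lowest young MPP library, 8.71 CPM, was only just above the highest of young ST-HSC, 8.62 CPM, and of young LT-HSC, 8.60 CPM. Cdkn1b was lower in aged LT-HSC than in aged ST-HSC (-0.51, adjusted p = 0.00378) and aged MPP (-0.53, 0.00132), with -0.36 (0.0798) and -0.26 (0.125) in young mice. In a fit to only young LT-HSC and ST-HSC that first comparison passed as well (-0.37, 0.0239). Cdkn2d passed in no comparison of populations, with values between -0.03 and 0.33.

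Over the 24 libraries, the 3 genes most like each of the 10 were taken by Pearson correlation of log2 CPM among 9784 genes with a mean of at least 10 CPM, as a description, since libraries share groups and depth. Cdkn1a was most like Phf7 (r = 0.905), Frmd6 (0.891) and Btg2 (0.887). Cdkn1c was most like Cadps2 (0.982), Shank3 (0.977) and Rhof (0.974). Cdk4 was most like Khsrp (0.976), Shmt2 (0.973) and Aarsd1 (0.970), and Cdk6 most like Pdgfrb (0.977) and Tmem180 (0.969). Leading genes for the others were Irf2bp2 for Cdkn1b (0.851), Taf1d for Cdkn2c (0.883), Rorb for Cdkn2d (0.784), Rpl23 for Ccnd1 (0.844), Epb4.1l4b for Ccnd2 (0.881) and Gpam for Ccnd3 (0.684). The leading r was highest for Cdkn1c and lowest for Ccnd3.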

How the data were processed

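The authors deposited 1 table of raw integer counts per gene symbol for all 24 libraries. Per the labels' protocols, cDNA was primed with not-so-random primers and libraries were made with a Nextera XT kit, a chemistry that as described marks neither strand nor molecules. Trim Galore, HISAT2, featureCounts and build mm10 are named in the submitters' processing notes; their versions, the annotation and the strand setting: not given in the sources used here. Groups come from the labels' age and cell type. The labels tie no library to a mouse, so p-values measure the spread between libraries.

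Counts were fitted with edgeR 4.0.16 (R 4.3.3): filterByExpr (14205 genes kept), TMM factors, and a robust quasi-likelihood model with 1 mean for each of 6 groups over 24 libraries (18 residual degrees of freedom). Tests are two-sided with Benjamini-Hochberg adjustment over the genes tested and a threshold of 0.05. CPM are counts scaled with TMM factors, and 95% intervals come from the fitted SE. Shares use the length of the longest principal GENCODE transcript and exact permutation tests (SciPy 1.17.1). The fitting was tested on simulated data. Alternatives were DESeq2 1.42.0, its size factors, no filter, a fit to the groups compared, the replicate number as a block, leaving out each library, and, chosen after seeing the data, leaving out 3 libraries and exon union lengths.

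The 10 genes and all lists were chosen with earlier results of these data known. Besides the 10 genes, up to 4 genes of smallest p of a list were named where it is described, and, of the 3 genes most like each by correlation, all or the leading one, with 1 gene not reported here. Erythroblast markers, not given in the results, summed to 14.4 to 127 CPM over all libraries.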

Additional observations from a re-analysis of the deposited data

Results flagged for a closer look

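Of 60 sets of 4 libraries, 1 for each gene and group, 5 held a library far from the other 3, where chance gives about 1 in 20. Cdkn1b stood out in young LT-HSC library 3, at 93.8 CPM against 75.3 to 75.6 CPM in the others, in aged ST-HSC library 2, at 111 CPM against 95.2 to 97.0 CPM, and in young MPP library 2, at 113 CPM against 88.7 to 91.8 CPM. Cdkn2c stood out in aged ST-HSC library 2, at 21.5 CPM against 14.9 to 15.7 CPM, the library that also held 1685 CPM of granulocyte markers. Cdkn2d stood out in aged MPP library 2, at 15.6 CPM against 12.9 to 13.3 CPM. In each case the library apart was the highest of its group.

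Age effects differed between populations for 2 genes by a test of the difference itself: in LT-HSC minus MPP, Ccnd2 by -0.46 (adjusted p = 0.0361) and Cdk4 by -0.67 (adjusted p = 0.0156) on the log2 scale, in edgeR's quasi-likelihood test.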

How the results depend on the processing

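Over 12 comparisons the 10 genes gave 47 calls. Of these, 37 kept call and direction in every alternative, 10 were lost in at least 1, and 0 changed sign. Of 73 results not called, 10 were called in some alternative and 23 changed sign. The gene counts that moved past 1.5 times were those of the differences of age effects. LT-HSC minus ST-HSC had 0 of 10 called, but 1 with DESeq2, 2 without the 3 libraries that stood apart, and 0 to 2 with 1 library left out. ST-HSC minus MPP had 0, but 1 with DESeq2 and 1 in a fit to only the groups compared. LT-HSC minus MPP had 2, but 1 without the 3 libraries, and 1 to 2 with 1 library left out. In the main fit 4.05%, 0.465% and 9.93% of all genes passed in these comparisons, in the same order. The shares of all genes under the alternatives are not given here, so the changed counts cannot be set against them.

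With exon union lengths the order of levels turned round in aged LT-HSC and aged MPP, for Cdkn1a minus Cdkn1b (-3.39 and -7.07 CPM per kb) and for Ccnd1 minus Ccnd3 (1.22 and 3.47). Among age differences of shares, in percentage points, those newly past the threshold were Ccnd1 in LT-HSC and Ccnd3 in ST-HSC with counts not divided by length (3.55 and 4.55), and Ccnd1 in LT-HSC with exon union lengths (6.03). Ccnd2 in MPP reversed with exon union lengths (-0.84). Without the 3 libraries the LT-HSC shares of Ccnd2 (-5.32) and Cdk6 (9.99) were no longer past it. Their groups stayed without overlap, and the adjustment was shared with ST-HSC share tests that could not pass. With 1 library left out the ranges were 3.35 to 4.82 (Ccnd1, LT-HSC), 2.39 to 3.26 (Ccnd1, ST-HSC), -8.36 to -5.32 (Ccnd2, LT-HSC), -10.9 to -8.32 (Ccnd2, ST-HSC), 5.06 to 8.26 (Ccnd3, ST-HSC), 8.60 to 10.1 (Cdk6, LT-HSC) and 11.4 to 13.4 (Cdk6, ST-HSC). The cause of these changes was not tested.

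Sign changes on the log2 scale were all in results that were not called. Without the 3 libraries they were Cdk4 in aged over young ST-HSC (0.090), in ST-HSC minus MPP of the age effects (0.035) and in young LT-HSC over ST-HSC (0.056). In LT-HSC minus ST-HSC of the age effects they were Ccnd1 (-0.12) and Ccnd2 (0.078). Cdkn1a in young LT-HSC over ST-HSC, -0.00, became 0.010 with DESeq2 size factors, 0.0070 with no filter, 0.0096 with DESeq2 and 0.11 without the 3 libraries.

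With 1 library left out, ranges that crossed 0 were, for aged over young ST-HSC, Cdkn1b -0.084 to 0.028, Ccnd3 -0.0089 to 0.29 and Cdk4 -0.12 to 0.063. For MPP they were Cdkn1b -0.071 to 0.16, Cdkn1c -0.36 to 0.016 and Ccnd2 -0.035 to 0.098. For age effects in LT-HSC minus ST-HSC they were Cdkn2d -0.085 to 0.15, Ccnd1 -0.11 to 0.17 and Ccnd2 -0.15 to 0.023. For ST-HSC minus MPP they were Cdkn1b -0.20 to 0.022 and Cdkn2d -0.048 to 0.17, and for LT-HSC minus MPP Cdkn1c -0.13 to 0.24, Cdkn2c -0.30 to 0.23 and Cdkn2d -0.0087 to 0.20. In aged mice they were Cdkn1b -0.078 to 0.13 and Cdkn2d -0.089 to 0.13 (ST-HSC over MPP) and Ccnd1 -0.057 to 0.14 (LT-HSC over MPP). In young LT-HSC over ST-HSC they were Cdkn1a -0.20 to 0.22, Cdkn2c -0.44 to 0.36 and Cdk4 -0.15 to 0.065. Others were Cdkn2d -0.14 to 0.037 in young ST-HSC over MPP and Ccnd3 -0.050 to 0.096 in young LT-HSC over MPP.

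With the replicate number as a block, 1 call was lost, Ccnd1 in young LT-HSC over MPP (0.36, adjusted p = 0.0530), 4 were gained and 0 changed sign. The 4 were all of Ccnd3: in MPP with age (-0.43), aged LT-HSC over MPP (0.31), young LT-HSC over ST-HSC (0.36) and young ST-HSC over MPP (-0.33). Deviations of same-numbered libraries correlated between -0.04 and 0.13, so the numbers were not taken as pairs. Counts behind Cdkn1c in MPP, 8 to 19 a library, and behind Cdkn2a and Cdkn2b limit what those genes can show.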
